A study of Homo sapiens with 2 samples.

Results

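The protease inhibitors of stratified epithelium described here are SPINK5, SPINK6, SPINK7, WFDC5, WFDC12, CST6, CSTB, A2ML1, SPINT1 and SPINT2. They were taken as the non-control probes whose gene name on the array equals 1 of these symbols, which gave 10 genes with 13 probes among 43317 gene names with 58201 probes. RNA came from Ca9-22, an established oral squamous cell carcinoma (OSCC) cell line, and was hybridised to single-colour Agilent expression arrays labelled with Cy3. The control sample was Ca9-22 infected with a control vector, and the other was Ca9-22 infected with a lentiviral vector for DLEU1, a long non-coding RNA. Both cultures went through blasticidin selection for 2 weeks, and the sources used here name no other difference between them. The DLEU1 vector carried the full-length cDNA, cloned from KON, another OSCC line, and the control was an empty lentivirus vector. The comparison asks which transcripts differed when DLEU1 was expressed ectopically. Each vector has 1 array from 1 culture, so no difference below has a replicate check, and no p-value is given. Whether the selected cells were a pool or a clone was not given in the sources used here, and a fold between the arrays cannot tell more cells expressing a gene from more RNA per cell.

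Stratified epithelium secretes proteases that cut the proteins holding cells together and activate other proteases, and it makes inhibitors that keep these enzymes in check. Kazal inhibitors (the SPINK genes) and Kunitz inhibitors (SPINT1 and SPINT2) block serine proteases such as kallikreins, matriptase and prostasin. Cystatins (CST6 and CSTB) block cysteine proteases such as the cathepsins, the small WAP-domain proteins (the WFDC genes) carry a disulfide-bonded core shared with elafin, and A2ML1 traps proteases of several classes. Not every protein named here is secreted: CSTB is a cytosolic cystatin, and SPINT1 and SPINT2 are anchored in the membrane.

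Kazal and WAP domains are held by disulfide bonds, so their coding sequence is rich in cysteine codons. Of the 13 probes, 5 (38.5%) held at least 2 cysteine codons (TGT or TGC) in a frame without a stop codon, against 19.1% of all 58201 probes. Where a probe had several such frames, the one with the most of these codons was taken, for all probes alike. Whether it is the frame that is translated was not checked. These 5 are shown because the gene values of SPINK5, SPINK7, WFDC5 and WFDC12 below, and a further SPINK5 value, were read from them. Each is the deposited probe sequence of 60 bases, written 5′ to 3′, with the cysteine codons of that frame in capitals, and its position is the hg19 location in the array file.
SPINK5 probe A_33_P3391126 (chr5:147510878-147510937, plus strand): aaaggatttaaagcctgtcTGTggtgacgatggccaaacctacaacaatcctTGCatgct
SPINK5 probe A_23_P356494 (chr5:147516758-147516817, plus strand): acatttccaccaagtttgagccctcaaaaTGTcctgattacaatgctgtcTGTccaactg
SPINK7 probe A_23_P213832 (chr5:147693680-147693739, plus strand): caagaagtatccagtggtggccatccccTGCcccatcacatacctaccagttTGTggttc
WFDC5 probe A_23_P402331 (chr20:43739083-43739142, minus strand): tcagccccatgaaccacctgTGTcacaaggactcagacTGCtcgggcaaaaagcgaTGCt
WFDC12 probe A_23_P68436 (chr20:43752779-43752838, minus strand): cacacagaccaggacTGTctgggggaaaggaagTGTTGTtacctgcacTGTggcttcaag

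Across the arrays, 47.6% (control vector) and 48.1% (DLEU1 vector) of the probes were well above background. Levels below are log2 of the processed signal less the 75th percentile of the array, and every difference is DLEU1 vector minus control vector. The DLEU1 probe A_23_P151337 went from a signal of 2178 to 14156, a difference of 2.74, and both other DLEU1 probes were also higher, by 0.85 and 0.54. On 274 probes spotted repeatedly, the SD of the difference between spots was 0.0804, and it was 0.306 for the 5 of them with signals under 100. The epithelial markers were KRT5, KRT14, KRT17, TP63, EPCAM, CDH1, DSP and PKP1. All 8 were detected on both arrays, with summed signals of 83106 and 262228 on the control and DLEU1 vector arrays. Of the 8, 6 were at least 2-fold higher and 0 lower, against 9.18% and 9.78% of all genes detected on both arrays. Their median difference was 1.74. KRT5 gave the largest signals, 28686 and 119985, while EPCAM was lower, at 18084 and 10238 (-0.78). Among markers of other cell types, fibroblast signals summed to 375.0 and 5292, with 2 and 3 of 6 genes detected, nearly all from COL1A1, while COL1A2, COL3A1 and DCN were not well above background on either array. Endothelial signals summed to 107.7 and 648.1, with 2 of 3 detected on each array (VWF at 48.1 and 609.5, CDH5 at 55.0 and 35.6), and PECAM1 was not well above background on either. The VWF probes did not give the same result. Another, detected on both arrays, read 33.7 and 31.2, and a further one read 3.20 and 3.21, well above background on neither. Leukocyte signals summed to 2081 and 2269, with 4 of 5 detected on each array and CD3E on neither. Most of both sums came from CD79A, at 1779 and 2022. CD14 was at least 2-fold lower, with a difference of -1.596, and the other 3 detected leukocyte markers were less than 2-fold apart. The part of these markers in the values below was not tested.

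Of the 10 inhibitors, 9 were detected on at least 1 array. Of those 9, 7 were at least 2-fold higher on the DLEU1 vector array and 0 were at least 2-fold lower. Over all 22543 genes detected on at least 1 array, 10.2% passed 2-fold upward and 10% downward. The 7 were SPINK5, WFDC5, WFDC12, CST6, CSTB, A2ML1 and SPINT1. SPINK7 and SPINT2 were detected with differences under 2-fold, and SPINK6 was well above background on neither array. Detected on both arrays were 6 genes, of which 4 were at least 2-fold higher and 0 lower, while 9.18% of all 20246 genes detected on both were that much higher and 9.78% that much lower. The median difference of the 6 was 1.33 (2.52-fold), and that of the 20246 was -0.07. All 6 lay above 0, as did 45.8% of all genes detected on both. SPINK5, WFDC12 and A2ML1 were detected on the DLEU1 vector array only, as were 53.9% of the 2297 genes detected on 1 array. With those 3 genes at their lower bounds the median was 1.59. They enter only through their detection on the DLEU1 vector array, and no median over all genes was computed in that way, so it has no counterpart here.

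**Figure D1:**
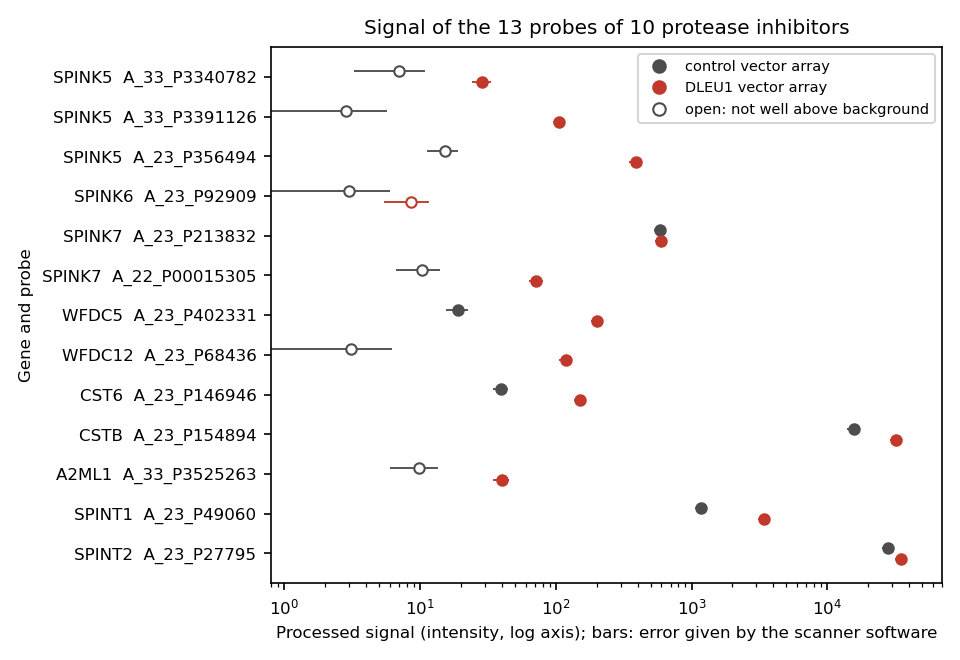
Processed signal (intensity, log axis) of each of the 13 probes for the control vector (grey) and the DLEU1 vector (red). Bars are the error given by the scanner software, bars that reach 0 end at the left axis, and open circles are signals not well above background. The SPINK7 probe A_23_P213832 has points that nearly coincide, at 582.9 and 596.5, while the SPINK5 probe A_23_P356494 runs from 15.2 to 387.

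Of the 3 Kazal inhibitors, SPINK5 was at least 2-fold higher with each of its probes. It encodes LEKTI, the multidomain inhibitor of KLK5, KLK7 and KLK14 whose loss causes Netherton syndrome. All 3 of its probes were well above background on the DLEU1 vector array only. The probe for transcript NM_006846 (A_23_P356494) gave processed signals of 15.2 ± 3.93 and 387 ± 38.9, in the order control vector and DLEU1 vector. Errors of signals, here and throughout, are those given by the scanner software. The measured difference was 4.71 ± 0.40 on the log2 scale (26.2-fold), and 2.52 with the normexp background correction. Its bound equals this difference, because its control signal lay above the lowest signal called well above background. The 26.2-fold is thus not a minimum. The probe named for NM_001127698 (A_33_P3391126) went from 2.83 ± 2.84 to 105.9 ± 10.96, at least 7.65-fold higher. The probe named for NM_001127699 (A_33_P3340782, chr5:147504419-147504478, plus strand) went from 7.05 ± 3.79 to 28.7 ± 4.70, at least 2.07-fold higher. That bound, 1.05 on the log2 scale, lies close to the 2-fold limit. The other ways of processing reported for SPINK5 follow A_23_P356494 only. Each bound sets the DLEU1 signal against the higher of the probe's own dim signal and the lowest signal called well above background, which was 14.2 on the control vector array.

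SPINK6, a Kazal inhibitor of kallikreins in skin, had 1 probe (chr5:147594478-147594537, plus strand), with signals of 2.99 ± 3.0 and 8.54 ± 3.13. Neither was well above background, so no fold is given.

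SPINK7 is a single-domain Kazal inhibitor known from oesophageal epithelium, and its probes did not give the same result. The brighter, A_23_P213832, read 582.9 ± 58.4 and 596.5 ± 59.7, a difference of 0.07 ± 0.20, which is smaller than its error. The other probe for the same transcript, A_22_P00015305 (chr5:147695373-147695432, plus strand), read 10.3 ± 3.71, not well above background, and 72.0 ± 8.06, at least 5.20-fold higher. SPINK7 was counted by the brighter probe, and by the other it would be an eighth inhibitor at least 2-fold higher.

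Both WAP-domain inhibitors were higher with the DLEU1 vector. WFDC5 went from a signal of 19.2 ± 3.57 to 202.4 ± 20.5, a difference of 3.44 ± 0.31 (10.8-fold), which ranked 77 from the top of 20246 genes and was 1.81 with normexp. Its control signal lay close to the detection limit. WFDC12 went from 3.09 ± 3.12, not well above background, to 118 ± 12.2, at least 8.54-fold higher, a bound of 3.09 on the log2 scale that was 1.38 with normexp. Both are small secreted proteins whose proteolytic targets are less well defined than those of elafin and SLPI.

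Both cystatins were also higher, by different amounts. CST6 encodes cystatin M/E, a secreted inhibitor of legumain, cathepsin L and cathepsin V. Its probe (chr11:65780838-65780897, plus strand) went from 39.6 ± 5.23 to 151 ± 15.5, a difference of 1.97 ± 0.24 (3.92-fold, rank 458), which was 1.08 with normexp. CSTB encodes stefin B, which inhibits cathepsins inside cells. Its probe (chr21:45194056-45194115, minus strand) went from 15652 ± 1565 to 32128 ± 3213, a difference of 1.08 ± 0.20 (2.11-fold, rank 1660), and the 2-fold limit lies within that error. Scaling on the array medians gave CSTB 0.96 and scaling on the spike-in probes 0.68, both under 2-fold.

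A2ML1 is a keratinocyte relative of alpha-2-macroglobulin. Its probe (chr12:9027061-9027120, plus strand) went from 9.75 ± 3.72, not well above background, to 40.0 ± 5.395, at least 2.89-fold higher. With the normexp background correction its bound was 0.46 on the log2 scale, under 2-fold.

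The Kunitz inhibitors, both of which act on matriptase and prostasin at the epithelial surface, gave unlike values. SPINT1 (hepatocyte growth factor activator inhibitor type 1; chr15:41149316-41149375, plus strand) went from 1171 ± 117 to 3426 ± 343, a difference of 1.59 ± 0.20 (3.0-fold, rank 773). SPINT2, its close relative (chr19:38782859-38782918, plus strand), went from 28133 ± 2813 to 35159 ± 3516, a difference of 0.36 ± 0.20 (1.28-fold, rank 5513). The SPINT2 difference turned to -0.04 with the spike-in scaling. Whether SPINT1 differed from SPINT2 in response was not tested.

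**Figure D2:**
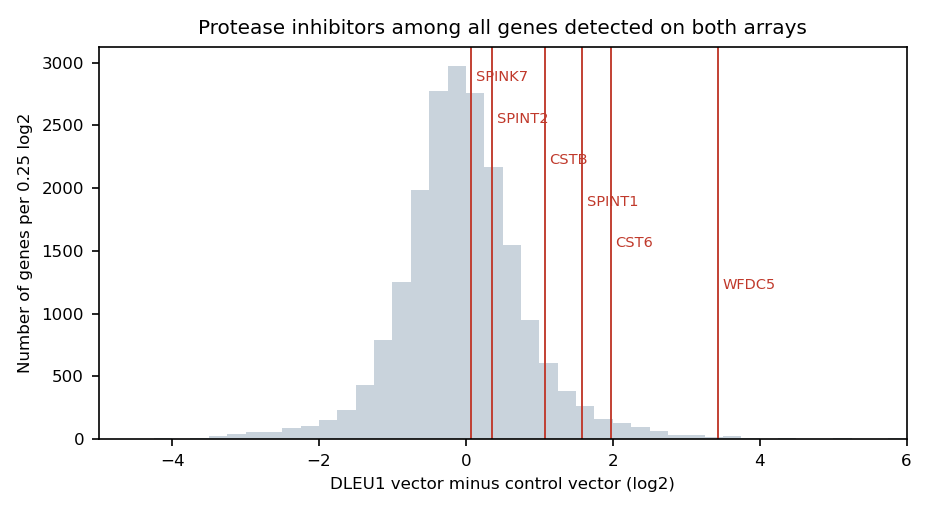
Number of genes per 0.25 log2 for the 20246 genes detected on both arrays, against the difference DLEU1 vector minus control vector (log2), with the 6 inhibitors detected on both drawn as red lines. WFDC5 at 3.44 and CST6 at 1.97 lie in the upper tail, while SPINK7 at 0.07 lies near the median of -0.07.

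The SPINK and WFDC genes each lie among relatives. The SPINK5, SPINK6 and SPINK7 probes spanned 191.0 kb of chromosome 5. Within 250 kb of them lay 14 other probes for 12 genes, of which 12 were well above background on neither array. The other 2, for SCGB3A2 and FBXO38 (named here after their values were seen), differed by -0.26 and 0.24, so no detected neighbour outside the SPINK family was 2-fold apart. The WFDC5 and WFDC12 probes lay 13.7 kb apart on chromosome 20. Of 23 other probes for 17 genes within 250 kb of them, 14 were detected on both arrays, 5 above 0 and 9 below. The probes at least 2-fold higher were those of PI3 and SLPI, both WAP inhibitors. Probes of PABPC1L (-1.496), TOMM34 (-1.18) and STK4-AS1 (-1.04), also named after their values were seen, were at least 2-fold lower, and a second probe of PABPC1L read -0.59 and of TOMM34 -0.76. MATN4, likewise, was above background with the control vector alone.

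**Figure D3:**
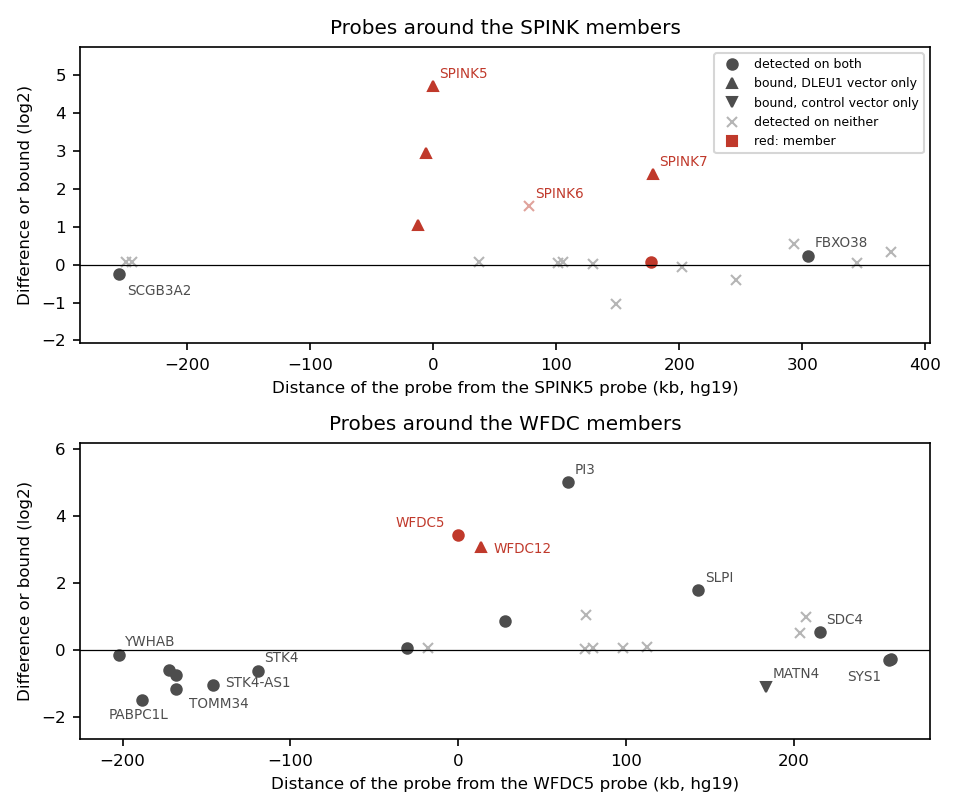
Difference or bound (log2, DLEU1 vector minus control vector) of each probe against its distance in kb (hg19) from the brightest SPINK5 probe (top) and the WFDC5 probe (bottom). Circles were detected on both arrays, up and down triangles are bounds for probes detected on the DLEU1 or control vector array only, crosses were detected on neither, and red marks the inhibitors described here. The higher values sit at the 3 SPINK5 probes, WFDC5, WFDC12, PI3, SLPI and the SPINK7 probe A_22_P00015305, a bound at 2.38, while the SPINK7 probe A_23_P213832, detected on both arrays, sits at 0.07.

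Other members of the same inhibitor families were set beside these genes. Of 7 other SPINK genes on the array, only SPINK1, the pancreatic secretory trypsin inhibitor, was detected, and only with the DLEU1 vector, at signals of 3.33 and 38.7 (at least 2.80-fold higher). Of 13 other WAP genes, 4 were detected, with a median of 1.48. Of those 4, 3 were at least 2-fold higher, against 10.2% of all detected genes. PI3, which encodes the elastase inhibitor elafin, went from 87.1 to 2751, a difference of 5.02. SLPI, the secretory leukocyte protease inhibitor, went from 4435 to 14913, a difference of 1.79, and WFDC3 differed by 1.18. Of 9 other cystatins, 3 were detected and 0 reached 2-fold in either direction. CSTA, the epidermal stefin, came nearest, with signals of 3395 and 6580 and a difference of 0.99. Of 6 other Kunitz-domain genes, 2 were detected and 0 reached 2-fold. In the alpha-2-macroglobulin family, 2 of 4 other genes were detected, and CPAMD8 differed by 2.82.

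The proteases that these inhibitors meet were followed in the same samples. Of 11 tissue kallikreins, 9 were detected on at least 1 array. Of those 9, 8 were at least 2-fold higher and 0 lower, against the 10.2% of all detected genes given above. The median over the 7 detected on both arrays was 2.29. KLK5, a target of LEKTI, went from 469.8 to 3729, a difference of 3.03, whereas KLK7, another target, went from 491.8 to 755.9, a difference of 0.66. KLK14 was well above background on neither array, at 2.81 and 7.17. The others at least 2-fold higher were KLK9 (a difference of 2.79), KLK6 (2.46), KLK11 (2.29), KLK4 (1.51) and KLK8 (1.49), with KLK12 and KLK10 detected on the DLEU1 vector array only, at bounds of 6.09 and 1.70. Thus KLK5 and SPINK5, an enzyme and its inhibitor, were both higher on the DLEU1 vector array.

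Of 15 epithelial serine proteases, 11 were detected on the DLEU1 vector array. At least 2-fold higher were 6 and lower 0, against 10.2% and 10% of all detected genes. The 6 were PRSS22 (3.43), TMPRSS13 (2.18), TMPRSS4 (1.99), PRSS8 (1.13) and, at bounds, TMPRSS11F (1.41) and TMPRSS11A (1.35). PRSS8, which encodes prostasin, went from 6493 to 13882, while ST14, which encodes matriptase, went from 1120 to 1333, a difference of 0.29. Of 12 cysteine proteases, 9 were detected. At least 2-fold higher were 3 of the 9, against the same 10.2%, namely CTSO (2.76), CTSH (1.13) and CTSB (1.11). Probes did not give the same result for CTSC, counted at 0.49 with others at 1.09 and -0.15. Those of CTSZ also differed, counted at 0.12 with another at -0.75. Legumain, cathepsin L and cathepsin V, the enzymes named above for CST6, did not reach 2-fold. CTSV differed by -0.60 (7885 and 5071), CTSL by -0.42 (15448 and 11258) and LGMN, legumain, by 0.17 (586.9 and 644.3). The median over the 9 detected was 0.49.

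**Figure D4:**
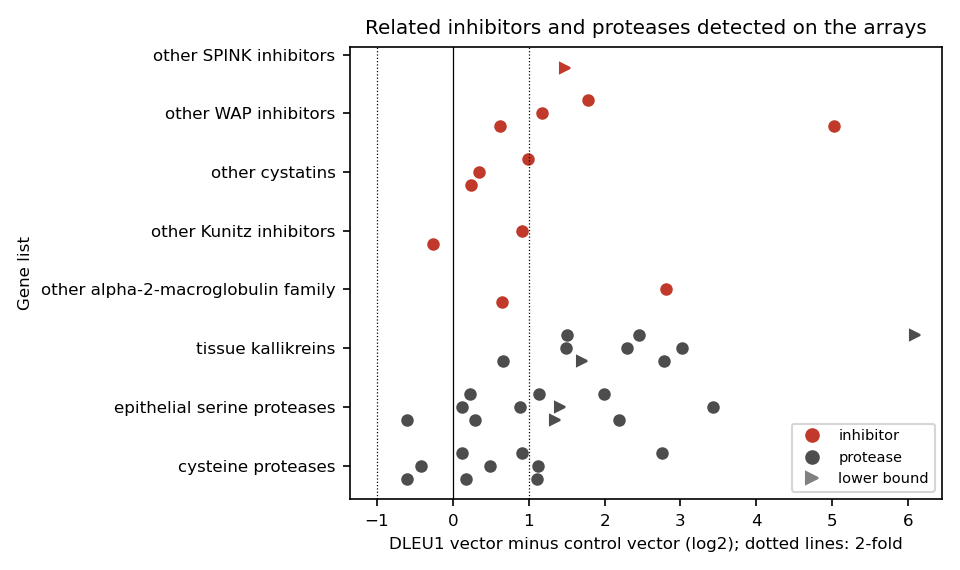
Difference or lower bound (log2, DLEU1 vector minus control vector; dotted lines at 2-fold) of each detected gene of the related inhibitor families (red) and protease lists (grey), with circles for genes detected on both arrays and triangles for bounds. The 7 kallikreins detected on both arrays lie between 0.66 and 3.03, above 0 as did 45.8% of all genes detected on both. KLK12 and KLK10 are drawn at bounds of 6.09 and 1.70, and they enter only through the DLEU1 vector array. The 9 detected cysteine proteases run from -0.60 to 2.76.

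Promoter sequence was available for 5 of the 10 genes (SPINK5, SPINK6, SPINK7, A2ML1 and SPINT1), with 8 start sites, from RefSeq on GRCh38.p14, each covering 250 bases before to 50 after the start. Both strands were searched for a TATA box (TATAAA), an AP-1 site (TGANTCA), a grainyhead-like site (AACCNGTT) and a KLF site (GGGNGNGG). TATAAA lay in 3 of the 8, those of SPINK5, SPINK7 and A2ML1, and in 11.5% of 35097 promoters. TGANTCA lay in 2 (SPINK6 and SPINT1; 7.71% of all), AACCNGTT in 1 (SPINK5; 1.73%) and GGGNGNGG in 4 (56.2%). The SPINK5 stretch is shown because it holds both the TATA box and the grainyhead-like letters, and its capitals mark them, with TATAAA found on both strands in overlapping positions. These matches are letters only, and no binding was measured.
SPINK5 promoter (GRCh38.p14, chr5:148063860-148063979, plus strand): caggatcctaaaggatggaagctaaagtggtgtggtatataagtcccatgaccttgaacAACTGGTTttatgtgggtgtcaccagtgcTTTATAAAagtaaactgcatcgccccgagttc

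The differences held their direction in most ways of processing the arrays. SPINK5, WFDC5, WFDC12, CST6 and SPINT1 stayed at least 2-fold higher wherever they could be computed, over 13 or 14 alternatives. SPINK7 turned to -0.04 with median scaling and -0.33 with spike-in scaling. The array of the DLEU1 vector has a strip in which 27.0% of lit spots read 2-fold lower or more, against 12.6% elsewhere, and 0 spots of the 13 probes lay in it. For each of them, the median difference of the 100 nearest spots ran from -0.0003 to 0.088.

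**Figure D5:**
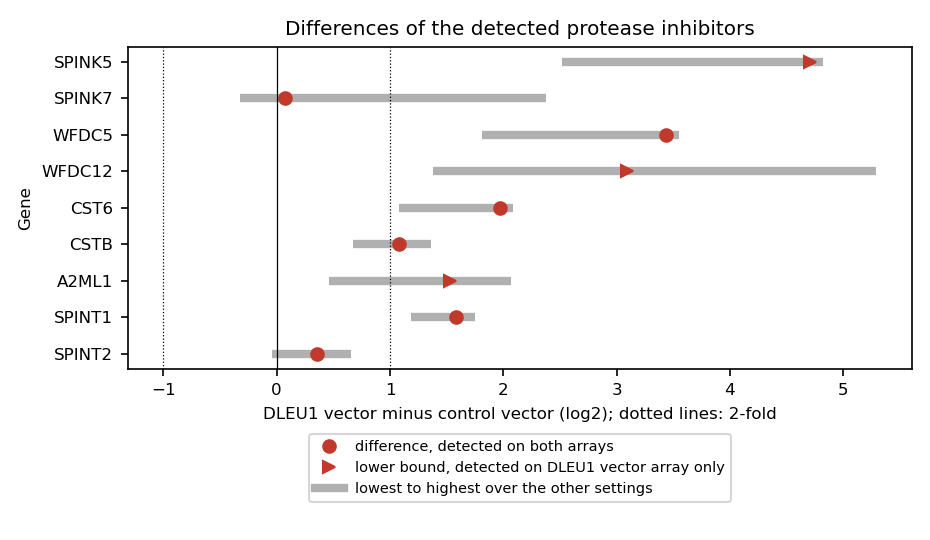
Difference (circles, detected on both arrays) or lower bound (triangles, detected on the DLEU1 vector array only) of each detected inhibitor, in log2, DLEU1 vector minus control vector, with dotted lines at 2-fold. For SPINK5 the bound equals the measured difference. Grey bars run from the lowest to the highest value over the other settings, which for genes with a bound include the unbounded value without a detection filter and for SPINK7 include its other probe. SPINK5, WFDC5, WFDC12, CST6 and SPINT1 lie above the 2-fold line over their whole bar.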

How the data were processed

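Total RNA of Ca9-22 cells with a control vector or a DLEU1 vector was measured on 1 single-colour Agilent array each. The authors' scanner files, made with Agilent Feature Extraction 10.7 (10.7.3.1 in the file headers), hold the deposited intensity of each spot after background subtraction, with its error. The deposited value table holds the same intensity, within 0.497%. The authors analysed the arrays in GeneSpring GX, with no normalization given in the sources used here.

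From these, 84 and 103 outlier spots and all control spots were left out, spots of a probe were averaged, and log2 of the deposited signal was taken less the array's 75th percentile (7.92 and 7.88). A probe was detected where most of its spots were well above background. A gene took its brightest probe detected on both arrays, otherwise the brightest detected on 1 array, with a bound. A gene was counted at 2-fold or more. No spot was saturated. The ± of a difference was propagated from the software's errors of both signals, which are technical, and each inhibitor probe has 1 spot. Only 2 arrays limit the precision.

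The genes named were the 10 inhibitors with all probes, DLEU1, genes of the related lists at 2-fold or more, and known targets or close relatives. The members, lists and motifs were chosen with earlier results of these data known. Alternatives were other scalings, normexp (offset 50), loess (span 0.3), a correction by the 100 nearest spots, the value table, filters, thresholds of 1.5-fold and 3-fold, and the mean of probes. Detection as positive and significant, and SPINK7 by its other probe, were added after seeing the data. The scripts were tested on simulated data. Python 3.11.15, pandas 2.3.3, numpy 2.4.6, R 4.3.3 and limma 3.58.1 were used. Exon and UTR annotation on hg19, protein sequences and the promoters of WFDC5, WFDC12, CST6, CSTB and SPINT2 were not used here.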

Additional observations from a re-analysis of the deposited data

How the results depend on the processing

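With 1 array per vector, no spread between cultures could be measured, and no paired analysis was possible because each group holds 1 array. The count of inhibitors at least 2-fold higher was 6 to 8 in every setting but a signal minimum of 100 for both samples, which left 4 genes, 2 of them at least 2-fold higher. At thresholds of 1.5-fold and 3-fold, 7 and 5 inhibitors passed upward, against 20.1% and 4.41% of all 22543 genes. Over the settings at 2-fold, the share of all genes higher ran from 5.35% with normexp to 13.1% with detection as positive and significant. With the signal minimum it was 7.27%. The count of inhibitors lower was 0 in every setting. The median difference (1.33) was 1.22 by median scaling, 1.44 by the upper quartile (75th percentile) of detected probes, 1.51 with quantile normalization, 1.56 with loess, 0.93 with spike-in scaling, 1.04 with normexp and 0.72 (4 genes) with the signal minimum. It was 1.78 without a filter on dim probes (10 genes) and also 1.78 with detection as positive and significant (8 genes), and 1.59 with SPINK7 by its other probe (5 genes). Of 121 single-gene values recomputed, 75 shifted by under the spot SD of 0.0804, 46 by more and 0 were a called value that changed sign. Many of the 75 could not shift. The filters, the detection rule, the mean of probes and the other SPINK7 probe left most values as they were by design. Leaving out the scaling moved every value by the same -0.038, and the value table holds the same signals rounded. The 75 are therefore no measure of stability. CSTB fell under 2-fold with median scaling (0.96), spike-in scaling (0.68) and the nearest-spot correction (0.99).

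Over all genes, median scaling, the 75th percentile over detected probes and the spike-in scaling (8 probes) shifted the median by -0.11, 0.11 and -0.40. The 2299 genes higher and 2264 lower (50.4% higher) became 1283 and 4861 (20.9% higher) with spike-in scaling, 1207 and 1453 with normexp, 4232 and 3807 without a filter, 4219 and 3797 with detection as positive and significant, 1026 and 1433 with the signal minimum, 4526 and 5005 at 1.5-fold, and 995 and 790 at 3-fold. The genes tested were 22543, but 43317 without a filter, 32204 with detection as positive and significant and 14112 with the signal minimum. The causes of these shifts were not tested. Signals near the detection limit of about 14.2 bound what can be said of SPINK6, and of the control levels of SPINK5, WFDC12 and A2ML1.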
